A study of Rattus norvegicus with 2 samples.

Results

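The genes described here are those of the insulin-like growth factor (IGF) axis that were followed in rat acetabular cartilage. They are the ligand gene Igf1, the receptor genes Igf1r, Igf2r and Insr, and the binding protein genes Igfbp2, Igfbp3, Igfbp4, Igfbp5, Igfbp6 and Igfbp7. They were taken by gene symbol, and all 10 were found, each in 1 row, among the 17337 genes of the deposited table. The table compares acetabular cartilage of 3-week-old Wistar rats raised without restraint (control) with that of rats swaddled from birth for 10 days, hips adducted and extended and knees straight, which then moved freely (DA-DDH, the disarticulation model of developmental dysplasia of the hip). Each group gave 1 library, made from the pooled RNA of 4 controls or of 5 DA-DDH rats, so the spread between rats was not measured, no test of the conditions was possible, and every interval given covers counting error only.

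IGF1 is a growth factor made in the liver under growth hormone and also locally in many tissues. It is a main anabolic signal of cartilage, where it promotes the survival of chondrocytes and their synthesis of proteoglycan and collagen. It acts through the receptor kinase IGF1R, which is closely related to the insulin receptor, whereas IGF2R (also the cation-independent mannose-6-phosphate receptor) takes up IGF2 for degradation and does not signal as a kinase. Secreted IGF-binding proteins hold most of the ligand outside cells, keep it from its receptor or release it near the receptor when they are cleaved, and IGFBP7 is a related protein that binds IGFs only weakly.

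The libraries held 796723 reads in the control and 833869 in DA-DDH, recovered from the deposited normalized counts, in which 1 read had a value of 1.20 and 0.855. A single gene, Col2a1, took 29.3% of the control reads and 11.4% of the DA-DDH reads. The libraries were therefore scaled by the trimmed mean of M-values (TMM), levels are given in CPM (counts per 1000000 reads on that scale), and log2 ratios are of DA-DDH over control after adding a prior of 0.5 reads. A floor of 30 reads, reached in whichever library had more, left 4375 genes. Their median log2 ratio was 0.03, and their 5th to 95th percentile ran from -0.83 to 0.99. Before the prior is added, scaling by total reads would move log2 ratios up by 0.43, scaling by Gapdh by 0.13 and by total reads without Col2a1 by 0.10. Both libraries carried the cartilage genes of their label, as the 14 chondrocyte markers measured summed to 275816 and 120340 reads in control and DA-DDH. All 13 of them with at least 30 reads had log2 ratios below 0.

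In the DA-DDH library, transcripts of the ligand Igf1 were 2.14-fold more abundant, those of 4 binding proteins (Igfbp3, Igfbp4, Igfbp5 and Igfbp6) were 1.27 to 1.80 times as abundant, and the counting intervals of Igfbp7 and of the 3 receptors included no difference with TMM scaling. Of the 10 members, 9 had at least 30 reads in both libraries, and Igfbp2 did not. Among these 9, 8 log2 ratios were above 0, against 52.6% of all genes at that floor, and 1 was below. The counting interval lay above 0 for 5 members (13.8% of all genes) and below 0 for none (14.1% of all genes). More than 2-fold higher was 1 member, Igf1 (4.82% of all genes), and more than 2-fold lower was none (3.04%). Their median log2 ratio was 0.34, beside 0.03 over all genes. With total-read scaling, all 9 were above 0, against 83.2% of all genes, 4 were more than 2-fold higher, against 14.6%, and 7 had intervals above 0, against 41.9%, with Igfbp7 and Igf2r added to the 5.

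**Figure D1:**
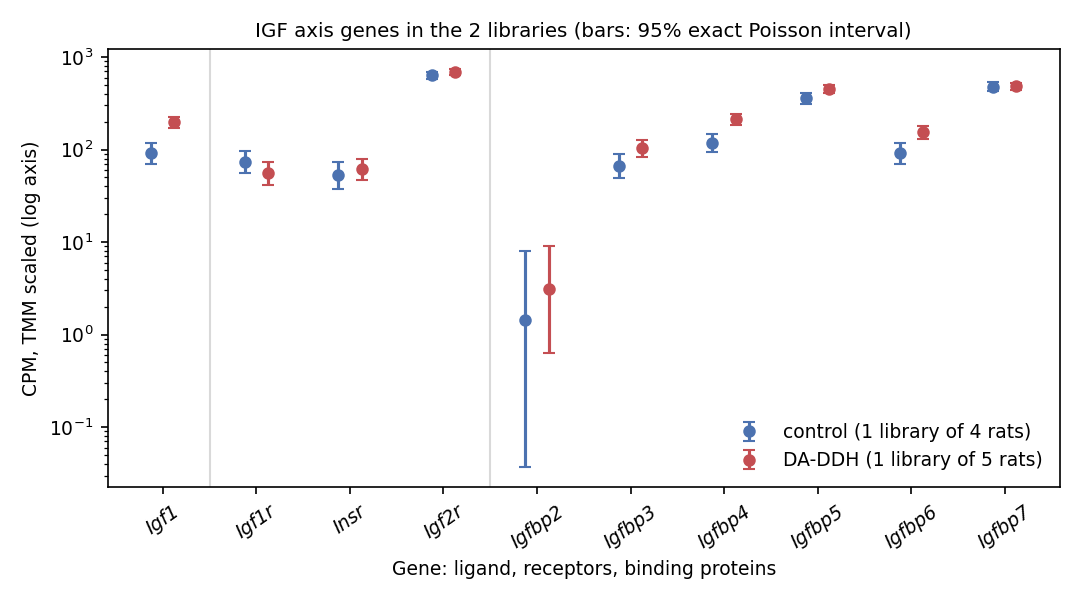
Level of each member in CPM (vertical, log axis, TMM scaled) in the control library (blue) and the DA-DDH library (red), with 95% exact Poisson intervals. The intervals of Igf1 do not overlap (70.4 to 117 and 170 to 227 CPM), those of Igfbp7 and of the receptors do, and Igfbp2 rests on 1 and 3 reads.

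To show the regulatory sequence of the genes on which the comparison turns, the 100 bases before the RefSeq start of Igf1 and Igfbp4, the members with the highest ratios among those with at least 30 reads, and of Igfbp5 and Igfbp7, the binding proteins with most reads, are given 5′ to 3′. They are RefSeq sequences of the build GRCr8, which is not the build of the deposited table (rn6), and capitals mark the letters TATAAA, the core of a TATA box, or GGGCGG, a GC box, on either strand, which do not overlap each other here.
Igf1 (chr7:24172432-24172531, plus strand): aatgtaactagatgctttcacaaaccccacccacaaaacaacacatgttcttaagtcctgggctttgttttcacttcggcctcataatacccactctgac
Igfbp4 (chr10:84491371-84491470, plus strand): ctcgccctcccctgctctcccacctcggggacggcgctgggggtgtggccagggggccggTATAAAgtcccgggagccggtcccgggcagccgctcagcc
Igfbp5 (chr9:81914188-81914287, minus strand): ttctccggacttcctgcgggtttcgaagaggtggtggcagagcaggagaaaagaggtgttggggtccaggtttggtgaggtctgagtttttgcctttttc
Igfbp7 (chr14:31091636-31091735, plus strand): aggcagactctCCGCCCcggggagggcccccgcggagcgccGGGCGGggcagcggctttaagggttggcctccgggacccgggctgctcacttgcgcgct
TATAAA was found in the 250 bases before the start of 1 of the 10 members, Igfbp4, where it begins 40 bases before the start, and in 12.9% of the 33469 windows of that length in the RefSeq table. GGGCGG was found in 4 members (Igf1r, Igf2r, Igfbp2 and Igfbp7) and in 30.5% of all windows. The stretch of Igf1 and that of Igfbp5 hold neither. All 10 members matched a window by symbol. A match of letters is a description of the window and not a binding site.

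Igf1, the ligand, was counted 63 times in control and 190 times in DA-DDH, that is 91.7 CPM (95% exact Poisson interval 70.4 to 117) and 197 CPM (170 to 227). Its log2 ratio was 1.10 (95% exact conditional binomial interval 0.68 to 1.54), and it ranked 159 from the top of the 4375 genes. The gene spans 28412198 to 28486609 on chromosome 7 of rn6 (plus strand), with 6 annotated exons of 1925 bases that overlap no other gene. A scaling moves all genes alike and leaves their order, and over the scalings tried the log2 ratio of Igf1 ran from 1.09 to 1.52. Igf2, the other IGF ligand and an imprinted gene of fetal growth, stood the other way, with 1314 reads in the control and 806 in DA-DDH (log2 ratio -1.20, interval -1.33 to -1.07). Within a library, which needs no scaling, there were 0.0479 reads of Igf1 for each read of Igf2 in the control and 0.236 in DA-DDH, a 4.92-fold difference (log2 2.30, interval 1.86 to 2.75). This pair was chosen after its values were seen. Per base of annotated exon, Igf1 remained below Igf2 in both libraries, at 0.116 and 0.569 times its level.

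Markers of several other cell types were higher in the same library, and in bulk RNA more cells of a type and more RNA per cell cannot be told apart. Summed reads of the 10 macrophage markers measured were 173 in the control and 618 in DA-DDH (log2 ratio 1.34, interval 1.10 to 1.60). Lyz2 alone had at least 30 reads in both libraries, 76 and 288 (1.43, interval 1.06 to 1.81). Csf1r, Mrc1 and Cd14 reached 30 reads in DA-DDH only. The 11 endothelial markers summed to 366 and 1123 reads (1.13, interval 0.95 to 1.30), and the 11 skeletal muscle markers to 747 and 2281 (1.12, interval 1.00 to 1.24). The 7 adipocyte markers summed to 102 and 256 reads (0.84), and the 9 markers of smooth muscle and pericytes to 1082 and 1883 (0.31). Of 8 smooth muscle and pericyte markers at the floor, 7 were above 0, and the median was 0.67. The other, Cspg4, had 472 and 495 reads (-0.42, interval -0.61 to -0.24). Of 12 fibroblast markers, 8 of the 9 at the floor were above 0, and the median was 0.62, while their sum, most of it Col1a1 and Col3a1, was at 0.04 (60371 and 87483 reads). Fbln1, with 10 and 31 reads, reached the floor in DA-DDH only. The 7 osteoblast markers were mixed, and those named were chosen after their values were seen. They summed to 1218 and 1880 reads (0.13), of which Spp1 held 498 and 1081, but the median was -0.25, and of the 5 at the floor 3 (Ibsp, Runx2 and Alpl) had intervals below 0 and 1 above. No marker measured was at 0 reads in both libraries. The part of these cell types in the levels of Igf1 and the binding proteins was not tested.

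With TMM scaling, no receptor had an interval clear of 0. Igf1r, which encodes the signaling receptor of IGF1, had 51 reads in the control and 54 in DA-DDH, a log2 ratio of -0.41 with an interval from -0.99 to 0.17. It was the only member with at least 30 reads below 0, and its sign turned with total-read scaling, to 0.02. Insr, the insulin receptor, had 37 and 59 reads (0.18, interval -0.44 to 0.82). Igf2r, the clearance receptor, was the receptor with most reads, 437 and 664, and its narrower interval (0.11, from -0.06 to 0.29) ended at 1.22-fold. For Igf2r this depended on the scaling, since its interval lay above 0 with total reads (0.54, from 0.36 to 0.72), with Gapdh (0.24, from 0.06 to 0.42) and with total reads without Col2a1 (0.21, from 0.04 to 0.39). Ratios of receptors to one another were likewise not resolved. Each read of Igf1r was matched by 0.725 reads of Insr in the control and 1.09 in DA-DDH (log2 difference 0.59, interval -0.27 to 1.46) and by 8.57 and 12.3 reads of Igf2r (0.52, interval -0.09 to 1.13). Set against its receptor, Igf1 had 1.24 reads for each read of Igf1r in the control and 3.52 in DA-DDH, a log2 difference of 1.51 (interval 0.78 to 2.24). Igf1r spans 128924921 to 129207049 and Igf2r 48176106 to 48264479 on chromosome 1 of rn6 (both on the plus strand), and Insr spans 1682527 to 1816414 on chromosome 12 (minus strand).

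**Figure D2:**
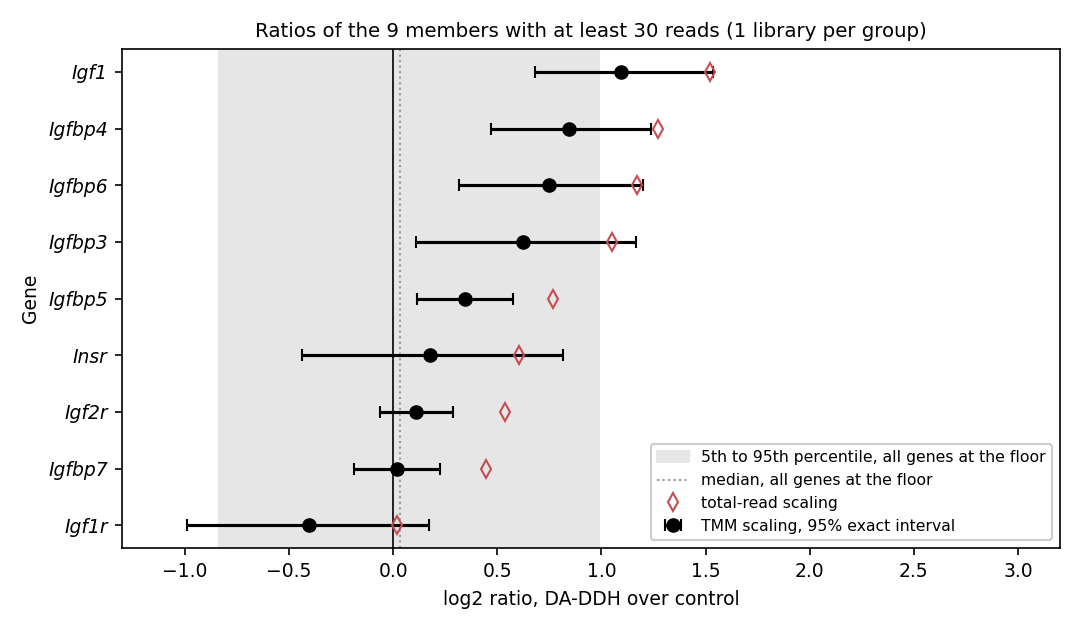
Log2 ratio of DA-DDH over control (horizontal) for the 9 members with at least 30 reads, ordered by ratio, with 95% exact intervals (black) and the value under total-read scaling (red diamonds). The grey band is the 5th to 95th percentile of all genes at that floor (-0.83 to 0.99), and Igf1 at 1.10 is the member outside it.

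The binding proteins differed widely in level. In RPKM (the TMM-scaled CPM divided by the annotated exon length in kilobases), Igfbp7 had the highest level of all members in both libraries, at 432 in the control and 438 in DA-DDH, followed by Igfbp5 at 220 and 279 and Igfbp6 at 106 and 178. The counting intervals of these 3 did not overlap within either library. Igfbp4 was at 54.5 and 98.0 RPKM and Igfbp3 at 27.8 and 43.0. In the control, the intervals of Igf2r, Igfbp4, Igf1, Igfbp3, Igf1r and Insr each overlapped that of the next in this order of level, while the difference between neighbours was not itself tested. In DA-DDH, Igf1 at 102 RPKM stood above Igf2r at 78.2 without overlap and next to Igfbp4, whose interval it overlapped. Igfbp2, a binding protein prominent in fetal and other growing tissues, was hardly detected, with 1 and 3 reads. These levels depend on the annotated exon length, which was 868 bases for Igfbp6 and 2407 for Igfbp3.

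Igfbp4, which inhibits IGF action and is cleaved by the protease PAPP-A, had the highest ratio of the binding proteins with at least 30 reads. Its reads numbered 81 in control and 205 in DA-DDH, a log2 ratio of 0.84 (interval 0.47 to 1.24), and lies on the plus strand of chromosome 10 of rn6 from 86950555 to 86962563. Igfbp6, which prefers IGF2 as its ligand, had 63 and 149 reads (0.75, interval 0.32 to 1.20) and lies on the plus strand of chromosome 7 from 143749385 to 143754017. Igfbp3, the main carrier of IGFs in blood, had 46 and 100 reads (0.62, interval 0.11 to 1.16).

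Igfbp5, a binding protein that attaches to extracellular matrix, had 246 reads in the control and 439 in DA-DDH, with a smaller ratio of 0.34 (interval 0.12 to 0.57). Igfbp7 was level between the libraries, with 328 and 467 reads, 477 and 483 CPM, and a log2 ratio of 0.02 (interval -0.19 to 0.23). On chromosome 14 of rn6, where it runs from 33010300 to 33070192 on the plus strand, its last exon shares 89 bases with Polr2b on the minus strand. The sources used here do not say whether counting used the strand, and Polr2b itself had 28 and 79 reads. With total-read scaling the values of Igfbp5 and Igfbp7 were 0.77 and 0.44.

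Some binding protein genes are neighbours in the genome, and the neighbours differed in level here. Igfbp2 and Igfbp5 lie tail to tail on chromosome 9 of rn6, from 80118029 to 80144801 on the plus strand and from 80154230 to 80166813 on the minus strand, with 9428 bases between them. Over both libraries, Igfbp2 had 4 reads and Igfbp5 had 685, and the RPKM of Igfbp2 was 1.13 in control and 2.40 in DA-DDH. Igfbp3 lies on the minus strand of chromosome 14 from 87457647 to 87465374, with 3863 bases between it and Igfbp1. Igfbp1, a mainly hepatic binding protein that is no member of the set and was looked up after the other values were seen, had 0 reads in both libraries, which allows up to 3 reads or 4.36 CPM in the control and 3.10 CPM in DA-DDH.

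Compared with one another, the binding proteins stood in a different balance in the 2 libraries. Their summed reads were 765 in the control and 1363 in DA-DDH, a log2 ratio of 0.34 (interval 0.21 to 0.47), and without Igfbp7, the weak binder and also the binding protein with most reads, 437 and 896, a log2 ratio of 0.54 (interval 0.38 to 0.71). Igfbp7 made up 42.9% of the binding protein reads in the control (95% exact binomial interval 39.3 to 46.5) and 34.3% in DA-DDH (31.7 to 36.9), a lower share without overlap of the intervals. Per base of exon, its share was 51.4% and 42.2%. The share of Igfbp4 was 10.6% (8.498 to 12.99) and 15.04% (13.2 to 17.0), again without overlap. Igfbp5 held the same share in both, 32.2% (28.9 to 35.6) and 32.2% (29.7 to 34.8). This rests on Igfbp7 being in the sum, and without it the share of Igfbp5 was 56.3% in the control and 49.0% in DA-DDH and that of Igfbp4 18.5% and 22.9%. The shares of Igfbp6, 8.24% (6.39 to 10.4) and 10.9% (9.32 to 12.7), and of Igfbp3, 6.01% (4.44 to 7.94) and 7.34% (6.01 to 8.85), were higher in DA-DDH with overlapping intervals. Igfbp2 held 0.131% (0.00331 to 0.726) and 0.220% (0.0454 to 0.642).

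**Figure D3:**
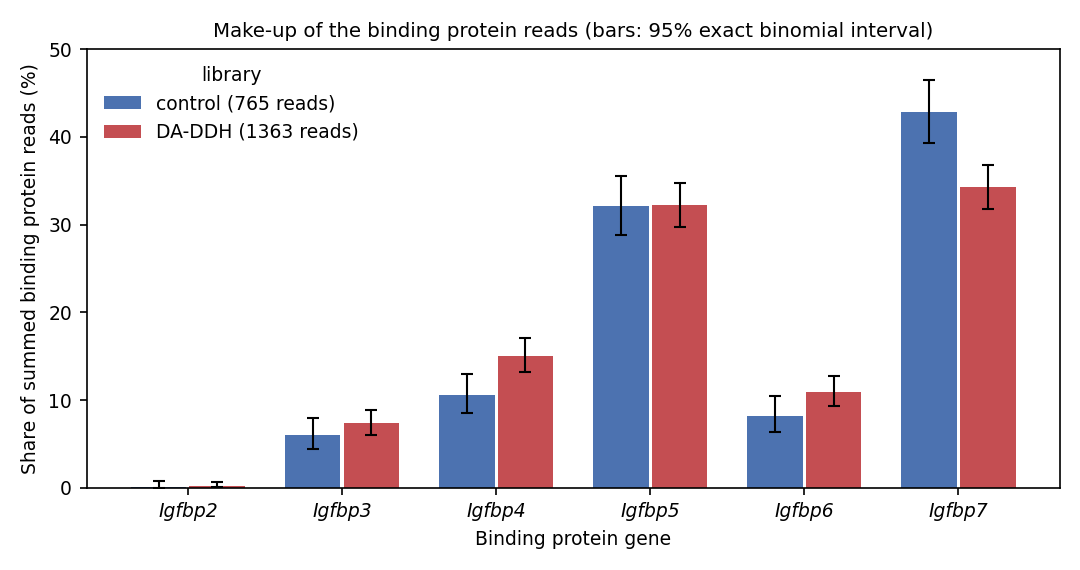
Share of each binding protein (vertical, percent) in the summed binding protein reads of the control library (blue, 765 reads) and of the DA-DDH library (red, 1363 reads), with 95% exact binomial intervals. Igfbp7 holds 42.9% and 34.3%, Igfbp4 10.6% and 15.04%, and Igfbp5 32.2% in both.

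The 6 binding proteins form 15 pairs, and the ratio of a pair within a library does not depend on the scaling between libraries. In 5 pairs the 95% exact interval of the change in that ratio was clear of 0, and in 2 it stayed clear when widened for the 15 pairs. These 2 were Igfbp4 against Igfbp7 (log2 difference 0.83, interval 0.39 to 1.27, widened 0.19 to 1.49) and Igfbp6 against Igfbp7 (0.73, interval 0.25 to 1.23, widened 0.02 to 1.47). The other 3 were Igfbp3 against Igfbp7 (0.61, interval 0.05 to 1.19), Igfbp4 against Igfbp5 (0.50, interval 0.06 to 0.96) and Igfbp5 against Igfbp7 (0.33, interval 0.01 to 0.64), and their widened intervals included 0. Igfbp3, Igfbp4 and Igfbp6 could not be told apart from one another, since their pairwise differences were 0.10 to 0.22, with intervals reaching as far as -0.58 and 0.87. The 5 pairs with Igfbp2 had intervals that spanned both directions widely, because it had so few reads.

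**Figure D4:**
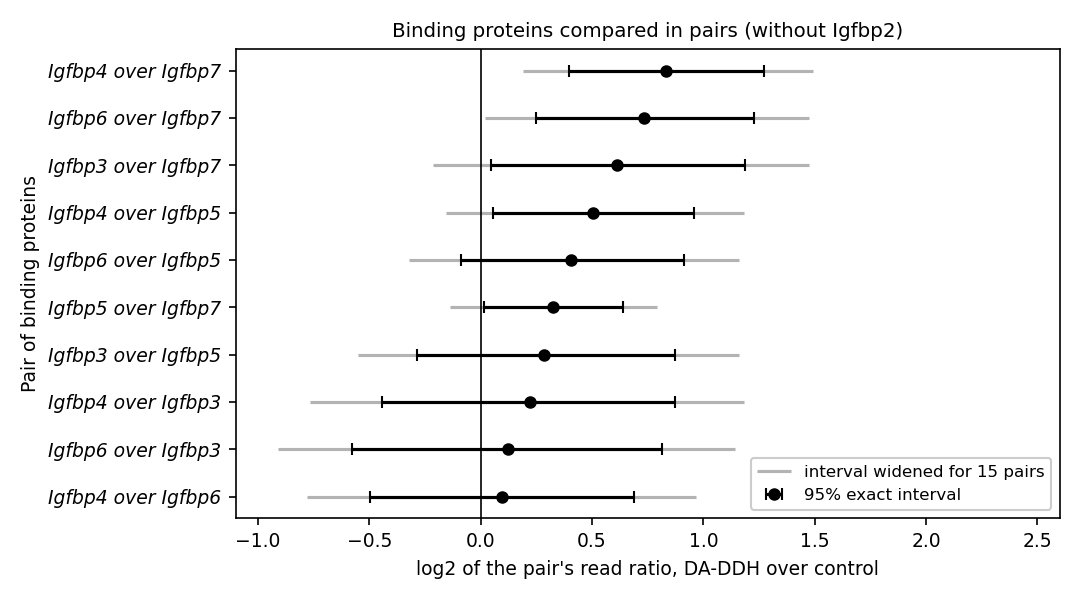
Change in the read ratio of each pair of binding proteins between the libraries (log2, DA-DDH over control), for the 10 pairs without Igfbp2, with 95% exact intervals (black) and intervals widened for 15 pairs (grey). The first 2 pairs, Igfbp4 and Igfbp6 over Igfbp7, have widened intervals clear of 0.

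The ratio of Igf1 to the binding proteins was higher in DA-DDH. For each 1 read of the 6 binding proteins there were 0.0824 reads of Igf1 in the control and 0.139 in DA-DDH, a log2 difference of 0.76 (interval 0.32 to 1.21). Without Igfbp7 these were 0.144 and 0.212, a log2 difference of 0.56 (interval 0.10 to 1.02).

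Other genes of the pathway lay on both sides of 0. From lists of 63 further genes measured, 42 had at least 30 reads, of which 18 were above 0 and 24 below, with a median log2 ratio of -0.07. The interval lay above 0 for 3 and below 0 for 11, beside the 13.8% and 14.1% over all genes. With total-read scaling 31 were above 0 and 11 below, while 83.2% of all genes were above 0. Intervals then stayed below 0 for Igf2, Cyr61 and Ctgf only, beside 3.66% of all genes, and more lay above 0 than on the TMM scale. Among the genes of ligand supply, all 4 with at least 30 reads were below 0 on the TMM scale. Besides Igf2 these were Ghr, the growth hormone receptor, with 59 and 43 reads (-0.94, interval -1.55 to -0.36), Stat5b, which carries its signal to the nucleus (-0.57, interval -1.31 to 0.15), and its kinase Jak2 (-0.28, interval -0.78 to 0.22), which stands above 0 when scaled by total reads.

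Of 8 genes for carriers, proteases and protease inhibitors with at least 30 reads, 6 were above 0. Mmp2, a gelatinase, had 594 and 1213 reads (0.54, interval 0.40 to 0.68), Plat, tissue plasminogen activator, was at 0.44 (interval -0.07 to 0.98), and the lysosomal protease Ctsd at -0.40 (interval -0.77 to -0.03), which went to 0.03 with total-read scaling. Htra1, a serine protease that cleaves IGFBP5, had 232 and 384 reads (0.23, interval -0.00 to 0.48). The intervals of Plat and Htra1 depended on the scaling. They lay above 0 with total reads, with Gapdh and with total reads without Col2a1. Pappa, which encodes the protease PAPP-A, had 19 and 30 reads (0.16, interval -0.71 to 1.08), too few to place beside its substrates Igfbp4 and Igfbp5.

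Downstream of the receptors, 9 of 23 genes with at least 30 reads were above 0 and 14 below, none past 2-fold. Irs1, the adaptor that couples IGF1R and the insulin receptor to PI3 kinase, had 245 and 218 reads (-0.66, interval -0.93 to -0.39). The kinase gene Akt2 was at -0.49 (interval -1.002 to 0.02) and the receptor-binding adaptor Grb14 at -0.44 (interval -1.17 to 0.27). With total-read scaling, which adds 0.43, the value of Irs1 stayed below 0 (-0.23), but its interval, from -0.50 to 0.035, included 0.

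Among 9 other genes with an IGFBP-type domain and at least 30 reads, 4 were above 0 and 5 below. Cyr61, which encodes a matrix-bound signaling protein of the CCN family, had 223 and 132 reads (-1.24, interval -1.57 to -0.93), its relative Wisp1 37 and 27 (-0.93, interval -1.72 to -0.19), and the membrane protein gene Crim1 161 and 137 (-0.72, interval -1.06 to -0.39). Wisp2, also of the CCN family, stood opposite with 11 and 37 reads (1.23, interval 0.26 to 2.38) and reached 30 reads in DA-DDH only.

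**Figure D5:**
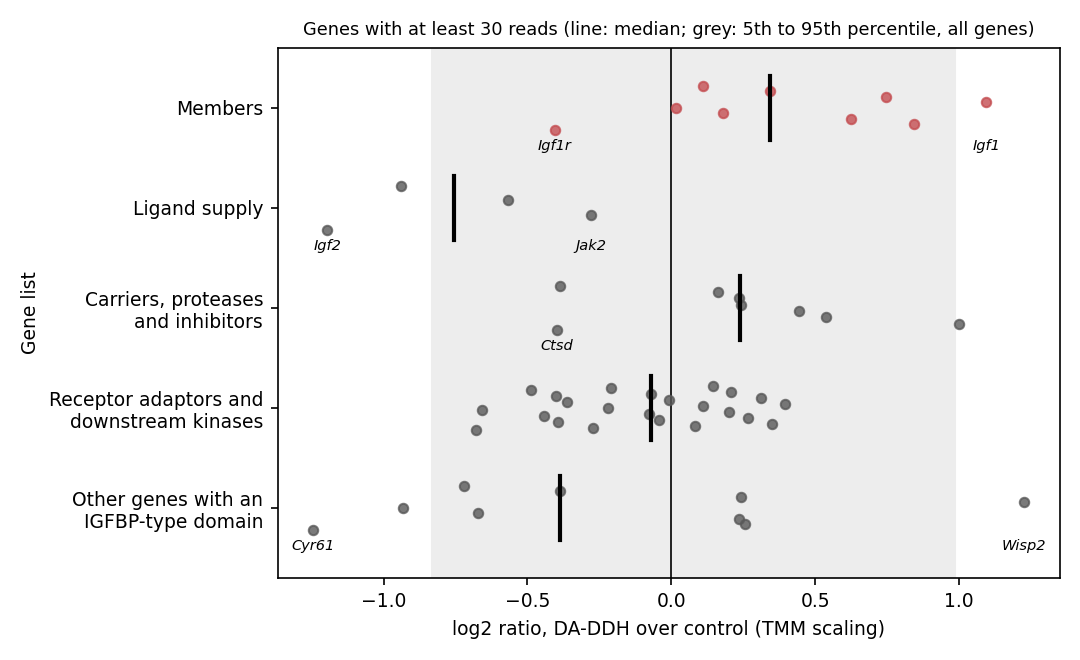
Log2 ratio of DA-DDH over control (horizontal, TMM scaling) for each gene with at least 30 reads, in the members (red) and in 4 lists of other pathway genes (grey points), with the median of each list as a black line and the 5th to 95th percentile of all genes as a grey band. The median is 0.34 for the members and -0.75 for ligand supply, with Igf1 at 1.10 and Igf2 at -1.20.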

How the data were processed

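Total RNA of acetabular cartilage was sequenced on an Illumina MiSeq as 1 pooled library per group. The methods name a TruSeq stranded mRNA kit and the submitters' labels a SMARTer stranded total RNA kit. Per the submitters' processing notes, TopHat and Cufflinks were used with the genome build rn6. How reads were counted per gene is not stated in the sources used here. The authors deposited a normalized signal per gene and library. All values (100% in each library, relative tolerance 1e-06) were whole multiples of 1 step, which gave the read counts back. The table also holds the authors' log2 fold, p-value, q-value, rank and call, which were not used.

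From the reads, TMM factors (edgeR 4.0.16), levels and ratios were computed, with 95% exact intervals. No count test was run, because each group has 1 library and no replicate spread. Exon lengths came from the deposited table. Functions were checked on simulated data. Other scalings (DESeq2 1.42.0 size factors among them), priors, floors and thresholds were tried. All members were named, with the 4 genes of largest absolute ratio at 30 reads of each pathway list and Igf2, Ghr, Irs1, Pappa and Htra1, and some of these genes are not reported here. Members and lists were chosen with earlier results of these data known. The software was R 4.3.3 and Python 3.11.15 with the packages scipy 1.17.1, numpy 2.4.6, matplotlib 3.10.9 and also pandas 2.3.3.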

Additional observations from a re-analysis of the deposited data

How the results depend on the processing

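No paired analysis was possible because each group has 1 library, and for the same reason no replicate could be left out. Of 164 values recomputed under alternatives, 131 moved by less than the counting interval (for counts, by less than 1.5 times) and 33 moved by more. Among the members, no ratio whose interval excluded 0 changed sign under the scalings, while Igf1r, whose interval included it, went to 0.02 with total-read scaling. Of the other pathway genes, Ctsd, Grb10 and Akt1, of which the latter pair was picked after its values were seen, had intervals below 0 and went to 0.03, 0.03 and 0.06 with that scaling. Scaling by total reads moved the median log2 ratio of the members to 0.77, the members more than 2-fold higher to 4, the log2 ratio of the summed binding proteins to 0.77, and the other pathway genes to 31 above 0 and 11 below. Over all genes at the floor it gave a median of 0.45, with 14.6% more than 2-fold higher and 83.2% above 0. Upper-quartile, median-of-ratios and the deposited scaling shifted log2 ratios, before the prior, by 0.000119, -0.00279 and -0.00259. A floor of 100 reads gave a member median of 0.62 and left 6 other pathway genes above 0 and 11 below. A threshold of 1.5-fold gave 4 members higher. Values over all genes at that floor and that threshold were not computed, so these values have no background beside them. Leaving out Igfbp7, which is also the binding protein with most reads, gave 0.54 for the sum. The widths of the intervals are set by read numbers, and variation between rats or libraries, which they do not hold, would widen them.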

Other observations

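Set against the summed markers of each cell type within a library, which needs no scaling, Igf1 and the binding proteins stood differently. These ratios were chosen after the values were seen and are given as a description. For each 100 reads of macrophage markers there were 36.4 reads of Igf1 in the control and 30.7 in DA-DDH (log2 difference -0.24, interval -0.74 to 0.26), for each 100 adipocyte marker reads 61.8 and 74.2 (0.27, interval -0.28 to 0.82), for each 100 endothelial marker reads 17.2 and 16.9 (-0.02, interval -0.48 to 0.44), and for each 100 skeletal muscle marker reads 8.43 and 8.33 (-0.02, interval -0.45 to 0.43). Igf1 was higher against markers of smooth muscle and pericytes (0.79, interval 0.36 to 1.24), fibroblasts (1.06, interval 0.64 to 1.49) and osteoblasts (0.97, interval 0.53 to 1.41), and most against chondrocyte markers (2.79, interval 2.37 to 3.22). The sizes of several of these differences rest on few genes. Cspg4 held 472 and 495 of the 1082 and 1883 smooth muscle and pericyte reads, with a log2 ratio of -0.42. Most fibroblast reads were of Col1a1 (44916 and 54156, -0.22) and Col3a1 (14384 and 31102, 0.62). Medians of these 2 lists at the floor were 0.67 and 0.62, beside 1.10 for Igf1. Differences without these genes were not computed.

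The summed binding proteins were higher against chondrocyte markers (2.03, interval 1.90 to 2.16), summed fibroblast markers (0.30, interval 0.17 to 0.43) and osteoblast markers (0.21, interval 0.04 to 0.37). The fibroblast value was set mostly by Col1a1 and Col3a1, and its direction is not that of most markers in the list. On the TMM scale, the 9 fibroblast markers at the floor had a median log2 ratio of 0.62, above the 0.34 of the summed binding proteins. They were lower against macrophage markers (-1.004, interval -1.29 to -0.72), endothelial markers (-0.78, interval -1.002 to -0.57), skeletal muscle markers (-0.78, interval -0.95 to -0.60) and adipocyte markers (-0.49, interval -0.86 to -0.13). Against markers of smooth muscle and pericytes they stood at 70.7 and 72.4 reads for each 100 marker reads (0.03, interval -0.14 to 0.20). That sum again holds Cspg4, and the median of the 8 markers at the floor was 0.67. Likewise the skeletal muscle sum holds Tnni2, the osteoblast sum Spp1 and the chondrocyte sum mostly Col2a1. Which cells carried these transcripts was not tested.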
